A study of Mus musculus with 34 samples.

Results

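Growth in culture was set against direct isolation from the animal in 8 groups of mouse cells, 4 cultured and 4 fresh. The cultured groups held 13 arrays and the fresh groups 13 arrays, so that the comparison used 26 of the 32 arrays of the series. Arrays were assigned to the cultured and fresh sides by their labels. Each group mean had the same weight, because the number of arrays per group ranged between 2 and 6. Values are log2 signals per gene, on which 1 unit is a 2-fold difference. All differences are cultured minus fresh unless said otherwise.

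The cultured groups were male embryonic stem cells at passage 9 to 14 in LIF and serum (ESC, 2 arrays), male embryonic germ cells made from E12.5 germ cells, at passage 19 in LIF and serum (EGC, 3), mixed-sex fibroblasts of E13.5 embryos at passage 2 in serum (MEF, 6), and mixed-sex neurospheres of 8-week mice at passage 1 in EGF (NSC, 2). The fresh groups were mixed-sex inner cell mass freed by immunosurgery at E3.5 (ICM, 3), mixed-sex E11.5 germ cells sorted as Oct4/GFP+ (PGC E11.5, 4), mixed-sex E11.5 gonad and mesonephros cells sorted as Oct4/GFP- (SGM, 4), and male marrow cells of 8-week mice (HSC, 2), sorted as Side Population cells that were Sca-1+, c-Kit+, CD34- and Lin-. The strain was C57Bl/6 in all groups but ICM, which came from crosses of C57Bl/6 with C3H, in replicate 1 also with CD1. Sorting, immunosurgery, donor age, sex, strain and cell type differ between the cultured and fresh groups together with culture, and cannot be told apart from it. ESC and EGC were male while ICM and PGC E11.5 were mixed-sex, so sex follows culture in the pluripotent groups. Of the genes named below, Fhl1, Pgk1, Mid1ip1, Nsdhl, Acsl4, Bex1, Bex4 and Pola1 lie on chromosome X, and the part of sex was not tested. The comparison was also made within 2 sets of 4 groups, ESC and EGC against ICM and PGC E11.5 for pluripotent cells, and MEF and NSC against SGM and HSC for somatic cells.

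The labels were checked against marker genes. Nanog, a pluripotency factor, had group means between 11.56 and 12.66 in ESC, EGC, ICM and PGC E11.5, and between 6.41 and 6.98 in the 4 somatic groups. Col1a2, a fibrillar collagen chain, was at 16.09 in MEF, Ptprz1, a receptor phosphatase of neural precursors, at 9.22 in NSC, Lmo2, a blood stem cell factor, at 13.01 in HSC and Wt1, a gonad and kidney regulator, at 8.52 in SGM, each the highest of the 8 groups. Gfap was at 7.04 in NSC and Pax2 at 7.11 in SGM, neither the highest of the 8, and Ptprc, highest in HSC, was at 5.68 there and 5.10 to 5.46 in the other groups. Of other fibroblast markers, Pdgfra was at 10.52 in MEF and 10.98 in SGM, and Col1a1 at 11.78 and 11.77. Of germ cell markers, Prdm1 was highest in PGC E11.5, at 8.49, while Kit was at 8.54 there and 9.69 in HSC. SGM also held the globins of red cells, with Hba-a1 at 13.18. Medians of single arrays lay between 7.17 and 7.37. MEF arrays had 11 to 13 probe sets above 16, the ceiling of a 16-bit scanner. The control probe sets of NSC and HSC were out of step with the mean of the groups other than NSC and HSC (r = 0.293 and 0.347). Their gene rows were in step with it (r = 0.922 and 0.885). Results were therefore repeated without MEF and without NSC and HSC together.

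Cells placed in culture are given serum or a single growth factor, excess glucose, high oxygen and a plastic or gel surface in place of the tissue around them. Well-known responses of cultured cells are a switch to glycolysis, induction of the p53 pathway and of cell cycle inhibitors such as those of the Ink4 locus, matrix and cytoskeleton production, and sterol synthesis when lipids are scarce. Dissociation and sorting of fresh tissue are known to induce immediate early genes.

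Of 8251 genes, 3700 (44.8%) differed between cultured and fresh cells at an adjusted p under 0.05 in limma (a linear model with a shared variance estimate, Benjamini-Hochberg over all genes). Of these 1743 (21.1%) were higher and 1957 (23.7%) lower. At least 2-fold differences were fewer, 152 genes (1.84%) higher and 78 (0.945%) lower. This test measures only the spread between arrays of a group, with a median SE of 0.0673. When each cell type counted as 1 value, 4 against 4, limma called 0 genes, against 114 (1.38%) at an unadjusted p under 0.05, and the median SE was 0.291. Culture against fresh accounted for 8.93% of the variance between the 8 group means, pluripotent against somatic for 25.0%, and an average one of the 7 independent contrasts for 14.3%.

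Genes that separated all cultured from all fresh groups were rare. Every cultured group mean lay above every fresh one for 36 genes (0.436%), and every one lay below for 45 genes (0.545%). In an exact permutation test over the 8 group means, the lowest p was 0.0286, that of every separated gene tested. The share separated in either direction, 0.982%, was under that p, so the count is not read as a result about culture. A test of all 16 pairs of groups, taking the largest p of a gene, called 2 of the higher genes in limma, Zmat3 and Fhl1 (0.0242% of all genes), and 0 of the lower ones. At an unadjusted p under 0.05 it passed 10 higher and 2 lower genes. Zmat3 was the 1 gene with a gap of at least 2-fold (0.0121%). ESC over ICM, EGC over PGC E11.5, MEF over SGM and NSC over HSC were all above 0 for 368 genes (4.46%) and all below 0 for 425 (5.15%). Both E13.5 germ cell groups, also fresh but outside the rule, lay below every cultured mean for 22 of the 36 higher genes and above every cultured mean for 34 of the 45 lower genes. They are of the same lineage as PGC E11.5, whose mean already had to lie beyond the cultured means, so this is no independent check. Without regard to groups, every cultured array lay above every fresh array for 8 genes (0.097%), Fhl1, Flot2, Myo5a, Pgk1, Thbs3, Tmem126a, Tuba1a and Zmat3, and below for 2 genes (0.0242%), F11r and Tent5c. Separated genes other than Zmat3, Fhl1 and list members are named below as the largest differences in each direction, a choice made after their values were seen.

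Zmat3 encodes an RNA-binding zinc finger protein that is induced by p53. It had 9.41 and 9.73 in ESC, 9.02, 9.20 and 9.42 in EGC, a lowest, median and highest value of 10.20, 10.30 and 10.46 in MEF, and 10.11 and 9.90 in NSC. In fresh cells it had 6.26, 6.66 and 6.84 in ICM, 7.93, 7.98, 7.91 and 8.13 in PGC E11.5, 7.39 and 7.44 in HSC, and 7.56, 7.77, 7.52 and 7.72 in SGM. No cultured array was as low as any fresh array, and the lowest cultured group stood 1.22 above the highest fresh group, a 2.33-fold gap. The difference was 2.37 ± 0.07 (SE), or 5.16-fold, with an adjusted p of 1.75e-19 in limma, by the spread between arrays of a group. With each cell type as 1 value, the SE was 0.356 and the adjusted p 0.719 in limma. The difference was 2.10 in pluripotent and 2.63 in somatic groups, and the test of all 16 pairs gave an adjusted p of 3.37e-06. The 2 germ cell groups of E13.5 had means of 7.44 in females and 7.38 in males.

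Fhl1 encodes a LIM domain protein of muscle and the cytoskeleton. Its values were 10.08 and 10.51 in ESC, 9.08, 9.12 and 9.09 in EGC, a lowest, median and highest of 10.95, 11.01 and 11.22 in MEF, and 10.89 and 10.63 in NSC, against 7.54, 7.95 and 8.14 in ICM, 8.11, 8.44, 8.36 and 8.52 in PGC E11.5, 7.59 and 7.84 in HSC, and 8.20, 8.52, 8.52 and 8.39 in SGM. EGC was the lowest cultured group, 0.69 above the highest fresh one. The difference was 2.21 ± 0.07, with an adjusted p of 0.0163 over the 16 pairs. The 2 other probe sets of Fhl1 differed by 0.61 and 0.19 and did not separate the groups, so the separation rests on its brightest probe set. The adjusted p over the pairs passed 0.05 when MEF, PGC E11.5 replicate 1, any EGC array, SGM replicate 1 or SGM replicate 4 was left out (0.0513 to 0.158), whereas that of Zmat3 stayed at or under 0.000301 with any single array left out. The call of Fhl1 was also lost with only the 8 groups in the fit (0.0549), with the mean of probe sets and with E13.5 germ cells added. E13.5 germ cells averaged 8.92 in females and 8.59 in males.

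**Figure D1:**
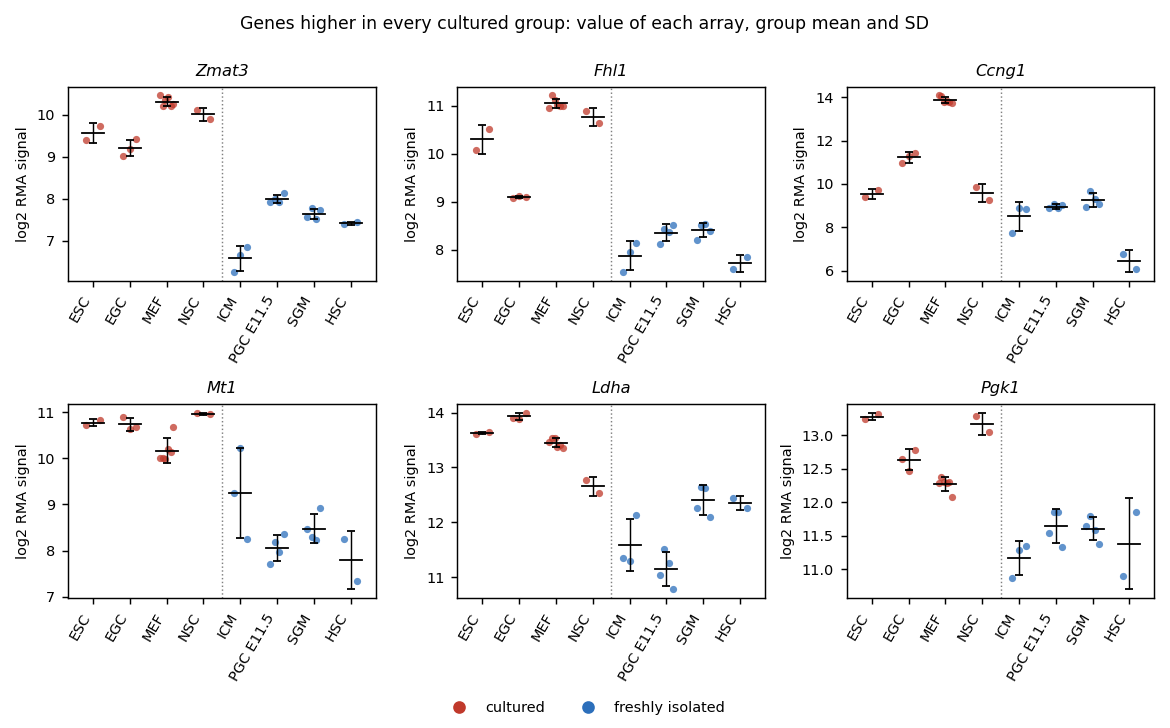
Log2 RMA signal of each array (points), group mean (bar) and SD (whiskers) for 6 genes whose cultured means (red, left of the dotted line) all lay above the fresh means (blue, right). Zmat3, Fhl1 and Pgk1 have no fresh array as high as a cultured one, and Mt1, Ccng1 and Ldha overlap in single arrays.

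Many genes of the p53 pathway and inhibitors of the cell cycle were higher in culture. Of the 31 measured, a list without Zmat3, 20 were higher and 4 lower (64.5% and 12.9%, against 21.1% and 23.7% of all genes), with a median difference of 0.38 against -0.02 over all genes. Ccng1, cyclin G1 and a p53 target, had the largest difference of the 36 genes, 2.76 ± 0.12, with means of 9.55 in ESC, 11.22 in EGC, 13.87 in MEF and 9.57 in NSC, against 8.50 in ICM, 8.96 in PGC E11.5, 9.25 in SGM and 6.44 in HSC. The gap between the lowest cultured and highest fresh group was 0.29, and 11 of 13 cultured arrays lay above all fresh ones. Phlda3, a p53-induced repressor of Akt, differed by 1.47. Its lowest cultured mean was 9.10 in ESC and its highest fresh mean 9.15 in SGM, so it did not separate the groups. Cdkn2b and Cdkn2a, neighbouring inhibitors of the Ink4 locus that restrain G1 kinases, differed by 1.96 and 0.68. Cdkn2b stood at 11.80 in MEF and between 7.02 and 7.58 in the other cultured groups, against 5.53 to 6.94 in the fresh groups. The E13.5 germ cells lay above ESC, EGC and NSC for both genes, at 7.63 in females and 7.75 in males for Cdkn2b and at 7.45 and 7.40 for Cdkn2a. Cdkn1c, an imprinted inhibitor of cyclin-dependent kinases, was lower, with a difference of -1.25. It stood at 11.30 in SGM, and the median over the list was 0.12 in pluripotent and 0.62 in somatic groups.

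Glycolysis turns glucose into pyruvate and lactate. Of 22 measured genes, 11 were higher and 2 lower (50% and 9.09%, against 21.1% and 23.7% of all genes), with a median of 0.36, and Ldha, Pgk1, Pgam1 and Pkm separated the groups. Ldha, the lactate dehydrogenase subunit of fermenting tissue, averaged 13.63 in ESC, 13.93 in EGC, 13.45 in MEF and 12.66 in NSC, against 11.59 in ICM, 11.15 in PGC E11.5, 12.40 in SGM and 12.35 in HSC. The difference was 1.54 ± 0.09, and it was 2.41 in pluripotent and 0.68 in somatic groups. Pgk1, a kinase that makes ATP in glycolysis, had values of 12.08 to 13.31 over all cultured arrays, against 10.87 to 11.86 over all fresh arrays, and differed by 1.39 ± 0.09. Pgam1 and Pkm, a mutase and a kinase of lower glycolysis, differed by 0.99 and 1.08, with gaps between groups of 0.04 and 0.06. A second probe set of Pkm differed by 0.59 and did not separate the groups. In pluripotent groups 13 genes were higher and 1 lower, with a median of 0.52, and in somatic groups 8 and 6, with a median of 0.10. Over all genes 21.8% were higher and 17.1% lower in pluripotent groups, and 24.6% and 33.5% in somatic groups. Slc2a1, the glucose transporter Glut1, rose in pluripotent groups by 1.75 and had a difference of 0.08 in somatic groups, and Aldoc, the brain aldolase, stood at 11.70 in NSC against 7.55 to 8.88 in the other 7 groups. Without NSC the difference of Aldoc was 0.16 and not called.

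The promoters of Ldha, Pgk1 and Pgam1 are shown because these genes separated the groups and hold the same motif; the sequences are from RefSeq, build GRCm38.p6, and run 5′ to 3′ over the 200 bases before the first listed start. Capitals mark ACGTG on either strand, the core of the hypoxia element, which is also part of the E-box CACGTG.
Ldha, chr7:46845604-46845803, plus strand: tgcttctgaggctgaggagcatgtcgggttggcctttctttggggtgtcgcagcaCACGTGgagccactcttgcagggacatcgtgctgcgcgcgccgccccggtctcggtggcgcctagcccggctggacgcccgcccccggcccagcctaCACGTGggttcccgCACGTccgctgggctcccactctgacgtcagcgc
Pgk1, chrX:106186900-106187099, plus strand: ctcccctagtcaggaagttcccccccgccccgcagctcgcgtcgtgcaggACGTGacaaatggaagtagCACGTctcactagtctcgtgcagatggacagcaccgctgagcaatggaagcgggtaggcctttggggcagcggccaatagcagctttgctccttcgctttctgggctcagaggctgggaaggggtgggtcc
Pgam1, chr19:41911671-41911870, plus strand: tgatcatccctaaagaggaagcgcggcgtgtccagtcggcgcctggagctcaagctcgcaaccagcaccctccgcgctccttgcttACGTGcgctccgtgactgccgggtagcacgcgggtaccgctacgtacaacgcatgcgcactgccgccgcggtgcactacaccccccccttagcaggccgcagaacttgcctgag
Counted on each strand, ACGTG occurred 5, 2 and 1 times in these windows. In Ldha each of 2 CACGTG sites held it on both strands and so counted as a pair. The first listed window of Pkm held none. ACGTG was searched after the values had been seen and in the whole listed window around each start. It was held by 9 of 21 first windows of glycolysis genes (42.9%), 12 of 31 of the separated higher genes (38.7%) and 11 of 40 of the separated lower genes (27.5%), against 24.5% of the first windows of all measured genes (1612 of 6572) and 19.6% of all 32851 windows. The other motifs are set against the same 6572 first windows. CCAAT was held by 38.7% of the higher and 40.0% of the lower genes, against 38.3%. TGANTCA, the AP-1 site, was held by 0 of 31 higher and 3 of 40 lower genes, against 6.15%, and GGAATG, the TEAD site, by 3 and 7, against 12.2%. TGACNNNGC, of the antioxidant element, was held by 6 and 4 against 14.7%, TCACNCCAC, of the sterol element, by 0 and 0 against 1.23%, and TTTCCCGC, of E2F, by 1 and 2 against 1.93%. The E-box CACGTG and TGCNCNC, of the metal element, were not planned either. CACGTG was held by 6 of 31 higher and 6 of 40 lower genes, against 9.95%. TGCNCNC was held by 17 and 24, against 58.5%.

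Metallothionein 1, a metal-binding and antioxidant protein, also separated the groups. Mt1 averaged 10.77 in ESC, 10.74 in EGC, 10.17 in MEF and 10.97 in NSC, against 9.25 in ICM, 8.05 in PGC E11.5, 8.47 in SGM and 7.79 in HSC. Its difference of 2.27 ± 0.16 was 2.10 in pluripotent and 2.44 in somatic groups, but its ICM arrays were spread over 8.26, 9.26 and 10.23 and reached the cultured range. Mt2, its neighbour in the genome, differed by 1.26 and overlapped between groups. Over the antioxidant list 18 of 42 genes were higher and 4 lower, with a median of 0.09. These were 42.9% and 9.52%, against 21.1% and 23.7% of all genes. Ephx1, a microsomal epoxide hydrolase, differed by 1.42, with 12.61 in MEF.

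Of the list of amino acid supply and stress genes, named for the stress factor ATF4, 16 of 30 genes were higher and 3 lower. These were 53.3% and 10%, against 21.1% and 23.7% of all genes. Psph, the last enzyme of serine synthesis, separated the groups with a gap of 0.35 and a difference of 0.81 ± 0.09, with 0.81 in pluripotent and 0.81 in somatic groups. Aldh18a1, of proline synthesis, separated them with a difference of 0.48. Mthfd2, a mitochondrial folate enzyme, differed by 1.05 and Slc38a2, a neutral amino acid carrier, by 1.62; both overlapped between groups. Atf3, another member of the list, was lower in culture, with a difference of -1.25. Psat1, the step before Psph, had 11.90 in ICM and differed by 0.06 in pluripotent and 2.06 in somatic groups. Other genes with higher means in every cultured group were Tuba1a and Tubb6, alpha and beta tubulins (differences of 1.20 and 1.08), Ext1, a heparan sulphate polymerase (1.57), Ak1, an adenylate kinase (1.35), Mid1ip1, a regulator of fat synthesis (1.26), Pdia4, an endoplasmic reticulum chaperone (0.99), and Higd1a, a hypoxia-induced mitochondrial protein (0.59). Tuba1a had no overlap of arrays, 13.95 to 14.71 in cultured and 11.03 to 13.90 in fresh cells. Second probe sets did not separate the groups for Tuba1a (0.79), Mid1ip1 (0.09) and Aldh18a1 (0.01), and that of Higd1a was lower in culture (-0.33). The other probe sets of Slc38a2, all dimmer, differed by -0.38, -0.09 and -0.17, and that of Mthfd2 by 0.14.

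The genes lower in every cultured group included several of blood cells. Tent5c, a poly(A) polymerase, had the largest gap, 0.65, and a difference of -1.51 ± 0.14. It had 5.88 and 6.05 in ESC, 6.10, 6.09 and 6.01 in EGC, 5.70 to 6.21 in MEF, and 5.75 and 5.94 in NSC, against 8.14, 7.44 and 7.61 in ICM, 7.01, 6.51, 6.81 and 6.52 in PGC E11.5, 7.22 and 8.21 in HSC, and 6.69, 8.17, 7.68 and 8.42 in SGM. All cultured arrays lay close together, while ICM, SGM and HSC arrays varied more. F11r, the junction protein JAM-A, fell by 1.71, with an adjusted p of 3.8e-15 in limma, by the spread between arrays of a group. It was not called with each cell type as 1 value, where the SE was 0.565. It had 9.24 and 9.34 in ESC, 8.38, 8.44 and 8.39 in EGC, 9.03 to 9.50 in MEF, and 6.58 and 6.79 in NSC, against 10.38, 10.91 and 10.39 in ICM, 10.07, 10.44, 10.33 and 9.75 in PGC E11.5, 9.60 and 10.16 in HSC, and 9.89, 9.72, 9.999 and 9.98 in SGM. NSC was far below the other cultured groups, and the E13.5 germ cells lay within the cultured range, at 8.66 in females and 9.07 in males. Srgn, a proteoglycan of blood cell granules, Lcp1, the leukocyte plastin, and Lmo2 and Gata2, blood stem cell factors, had differences of -2.17, -2.02, -1.82 and -1.31. All 4 had their highest mean in HSC, at 9.97, 11.89, 13.01 and 10.62, and their gaps over the cultured groups were 0.26, 0.17, 0.11 and 0.22. For Lcp1 the PGC E11.5 mean was 7.83 and the highest cultured mean 7.66, against 10.32 in ICM. Second probe sets of Lcp1 (0.08), Lmo2 (-0.60), Gata2 (-0.51) and Ulk1 (-0.28) did not separate the groups. Alad, of haem synthesis, Adh1, an alcohol dehydrogenase, Ulk1, the autophagy kinase, Ptbp3, an RNA-binding protein, and Trp53bp1, a DNA break response protein, had differences of -1.21, -1.13, -1.08, -0.95 and -0.94.

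**Figure D2:**
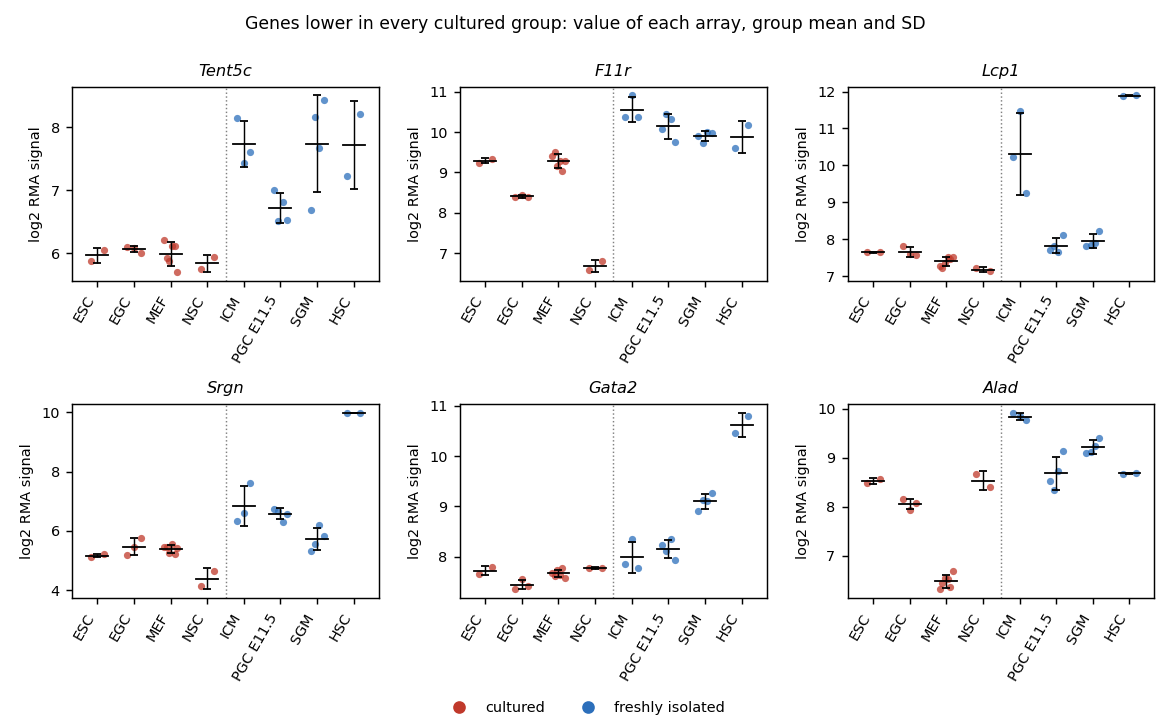
Log2 RMA signal of each array (points), group mean (bar) and SD (whiskers) for 6 genes whose cultured means (red, left) all lay below the fresh means (blue, right). Tent5c and F11r have no overlap of arrays, while the distance for Lcp1, Srgn and Gata2 is largest in HSC, with at least 1 other fresh group close to the cultured ones.

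Markers of the sorted or dissected cell types were also lower in culture, and their part in the lower genes was not tested. Of 19 haematopoietic stem markers 18 were lower and none higher, of 12 erythroid markers 10, of 27 macrophage markers 16, of 15 endothelial markers 10 lower and 1 higher, of 14 gonad markers 8 and of 8 germ cell markers 6. Over all genes 23.7% were lower and 21.1% higher. In pluripotent groups the erythroid and stem cell medians were 0.12 and 0.07. The globins Hbb-b2, Hba-a1, Hbb-y and Hba-x had differences of -2.22, -1.64, -1.83 and -1.57, and without SGM Hba-a1, Hbb-y and Hba-x had -0.45, -0.65 and -0.12, not called. Of 24 fibroblast markers 15 were higher and none lower. In these bulk samples fewer cells of a type and less RNA per cell cannot be told apart.

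The lists of matrix, matrix proteases, actin cytoskeleton, and YAP and SRF targets had their highest median in MEF minus SGM. The list of tubulins and microtubules did not, with -0.04 there and 0.37 in NSC minus HSC. Of 38 matrix genes 23 were higher and 5 lower (median 0.34), of 26 matrix proteases and inhibitors 18 and 1 (0.33), of 40 actin cytoskeleton genes 19 and 7 (0.21) and of 20 YAP and SRF targets 10 and 4 (0.38), where all genes had 21.1% higher and 23.7% lower. The matrix median was 1.05 for MEF minus SGM, 0.39 for EGC minus PGC E11.5, -0.08 for ESC minus ICM and -0.03 for NSC minus HSC. The actin medians were 0.75, 0.31, -0.20 and -0.09 in the same order, and those of YAP and SRF targets 1.78, 0.17, -0.01 and -0.30. Of the genes named here, all but Fermt2 had their highest mean in MEF. Tnc, tenascin C, was higher in every cultured group, but its mean was 9.39 in ESC and EGC, 13.72 in MEF and 11.02 in NSC, against 9.38 in ICM, 8.91 in PGC E11.5, 9.33 in SGM and 6.10 in HSC, a gap of 0.01. A second probe set of Tnc differed by 2.29 and did not separate the groups. Fbln2 and Col5a2, a fibulin and a collagen chain, reached 16.26 and 16.70 in MEF, above 16. Lox, the lysyl oxidase that crosslinks collagen, stood at 13.84 in MEF and 5.37 to 8.26 in the other 7 groups. Without MEF the differences of Col5a2, Lox and Cav1 (caveolin 1, of membrane pits) were of the other sign, at -0.0261, -0.23 and -0.34. Acta2 and Tagln, smooth muscle actin and its binding protein, had 14.41 and 11.98 in EGC against 9.94 and 9.84 in PGC E11.5. Of the 24 fibroblast markers 9 were higher and 2 lower in pluripotent groups (median 0.18), against 21.8% and 17.1% of all genes. The part of such cells in these differences was not tested. S100a6, a calcium-binding protein, Anxa3, an annexin, Ccn2, a YAP target, Timp3 and Mmp14, a protease inhibitor and a protease, and Fermt2, of integrin adhesions, differed by 1.90, 2.26, 1.94, 1.44, 1.35 and 1.53 and overlapped between groups.

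**Figure D3:**
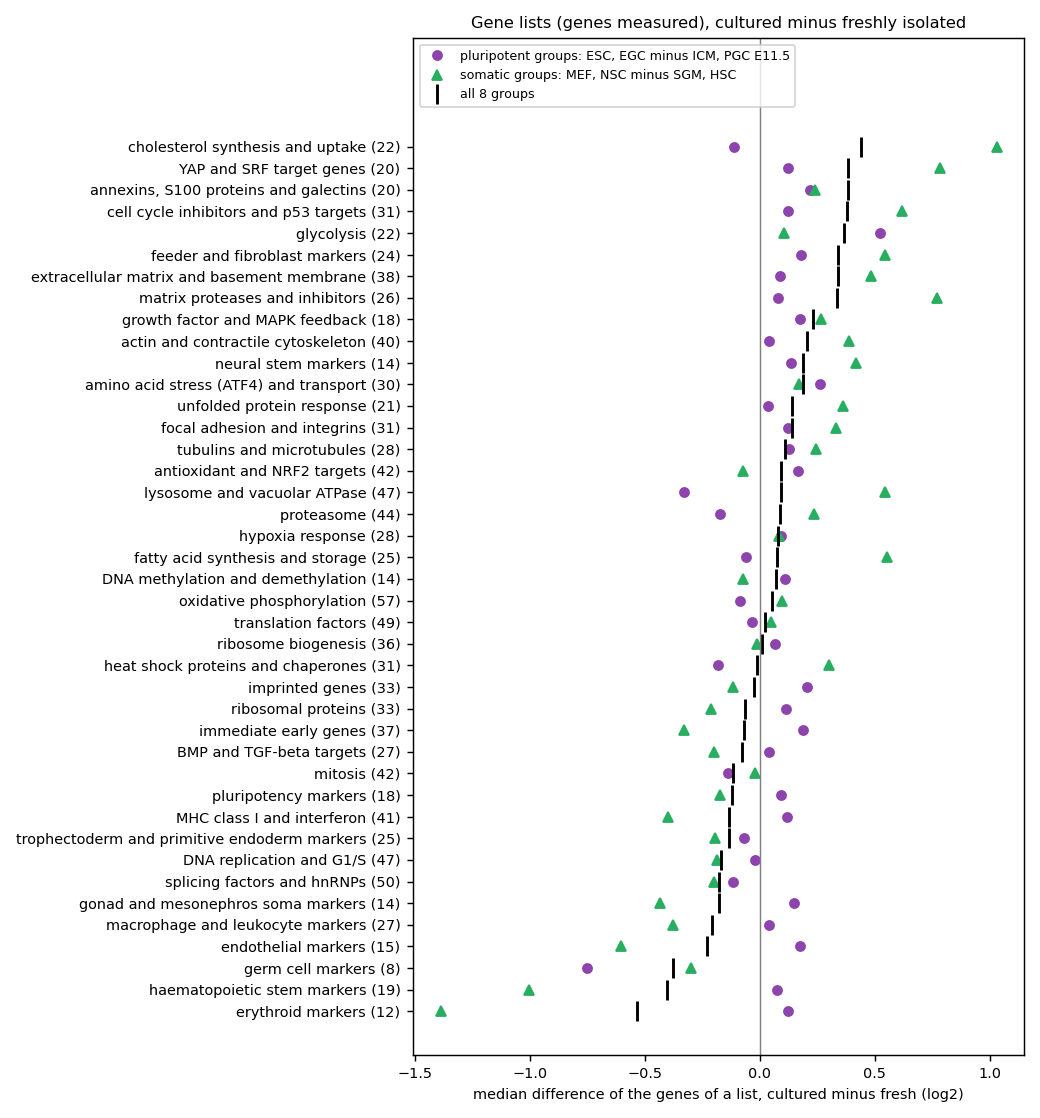
Median log2 difference of each gene list (number of genes measured) in pluripotent groups (circles), somatic groups (triangles) and all 8 groups (black ticks). Cholesterol synthesis has a median of -0.11 in pluripotent and 1.03 in somatic groups, and glycolysis 0.52 and 0.10.

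The difference was often unlike in pluripotent and somatic cells. Of 8251 genes 4993 (60.5%) passed the test of the difference of differences, 2968 (36%) as more positive in pluripotent groups and 2025 (24.5%) as more positive in somatic groups. With a size of at least 1 there were 492 (5.96%) and 901 (10.9%). Within pluripotent groups alone 3207 genes (38.9%) were called, 1796 (21.8%) higher and 1411 (17.1%) lower, and within somatic groups 4788 (58%), 2028 (24.6%) higher and 2760 (33.5%) lower. Cholesterol synthesis was one such list. There 19 of 22 genes were higher and 2 lower in somatic groups, against 1 higher and 5 lower in pluripotent groups, and 18 of 22 were called as smaller in pluripotent groups. Hmgcs1, the enzyme that makes HMG-CoA, averaged 11.02 in ESC, 9.37 in EGC, 10.07 in MEF and 11.44 in NSC, against 9.53 in ICM, 10.31 in PGC E11.5, 8.83 in SGM and 5.95 in HSC, and its PGC E11.5 arrays spread over 8.83 to 10.98. HSC was the lowest group, and without NSC and HSC the difference was 0.60 and not called. Msmo1, Nsdhl and Idi1, later enzymes of the pathway, had somatic differences of 3.22, 2.36 and 2.40, and pluripotent ones of 0.19, 0.13 and 0.47. Scd1, the stearoyl-CoA desaturase, had 12.20 in NSC and 7.29 in HSC, with 3.38 in somatic and 0.20 in pluripotent groups, while Acsl4, which activates long fatty acids, differed by 2.28 in pluripotent and 1.39 in somatic groups.

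**Figure D4:**
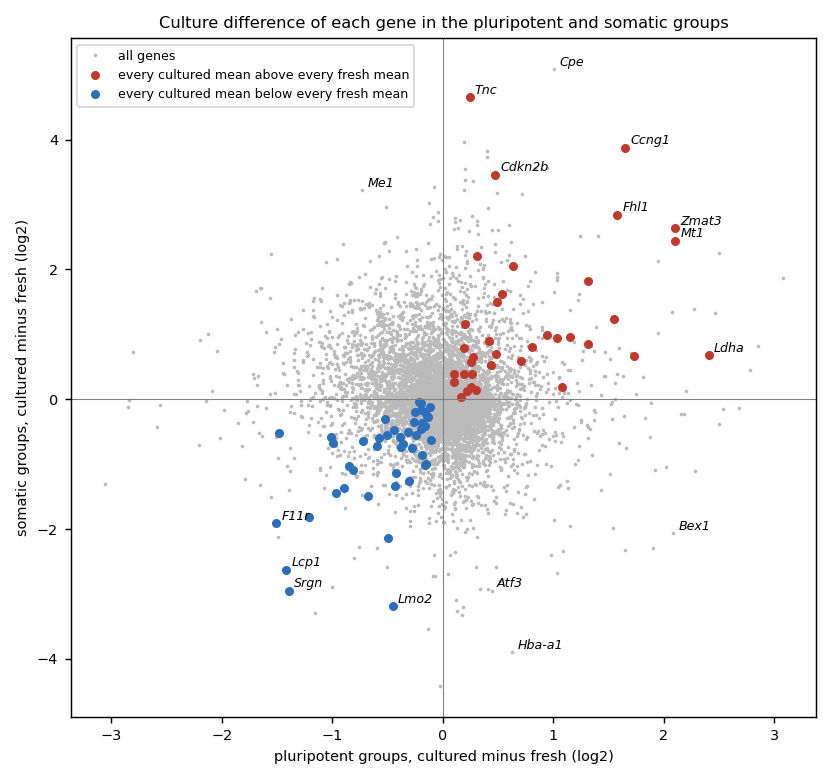
Cultured minus fresh difference (log2) of each gene in pluripotent groups (x) and somatic groups (y), with the 36 genes higher (red) and 45 lower (blue) in every cultured group marked. Zmat3 and Mt1 lie at similar distances on both axes, while Tnc, Cpe and Me1 lie farther up the somatic axis.

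The largest positive differences of differences (pluripotent minus somatic) were those of Hba-a1 (4.52), Hbb-b2 (4.39), Bex4 (4.19), Bex1 (4.15) and Rab26os (3.98), and the most negative ones those of Tnc (-4.41), Cpe (-4.07), Me1 (-3.95), Atp6v1c1 (-3.78) and Fbln2 (-3.77). Bex1 and Bex4, X-linked adaptor proteins, had 11.40 and 12.27 in EGC and 5.95 and 7.78 in MEF. Cpe, the carboxypeptidase that trims peptide hormones, had 15.94 in MEF against 3.65 in HSC, and Me1, malic enzyme, fell by 0.73 in pluripotent and rose by 3.22 in somatic groups. Atp6v1c1, a subunit of the vacuolar proton pump, had 12.12 in ICM and 7.63 in SGM. These sizes follow from few groups, and for Bex1, Bex4, Rab26os and Atp6v1c1 the overall difference (0.01, -0.20, -0.34 and 0.34) was small beside them.

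**Figure D5:**
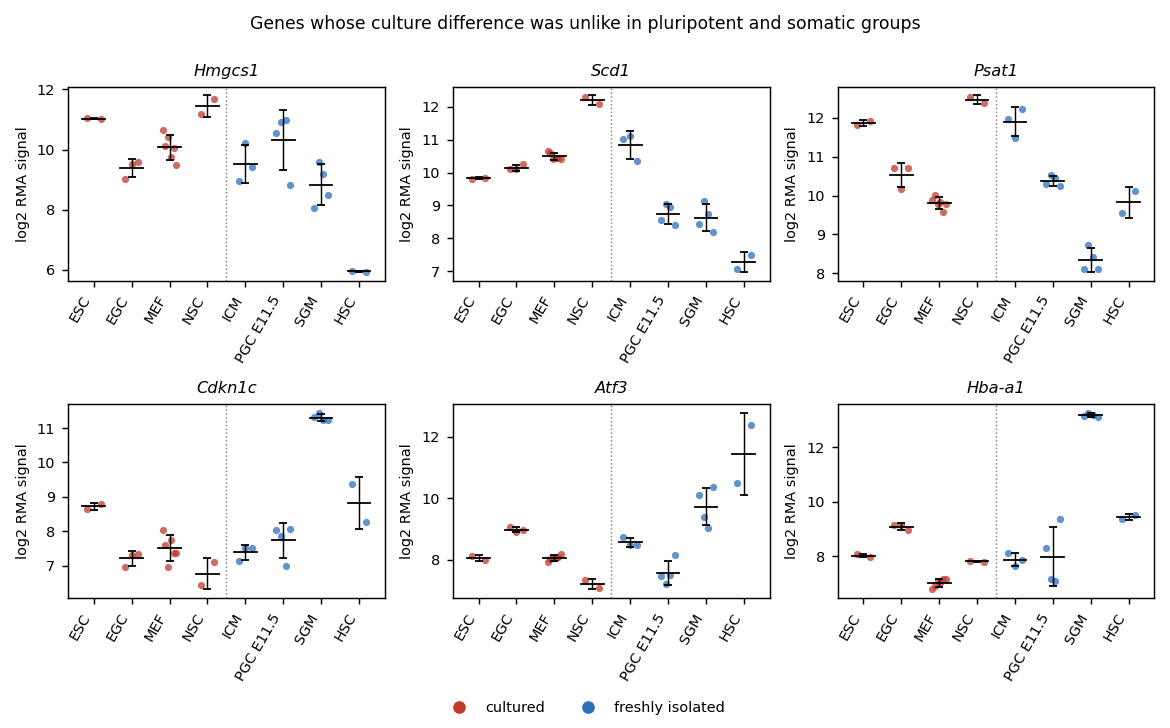
Log2 RMA signal of each array (points), group mean (bar) and SD (whiskers) for 6 genes with unlike culture differences, cultured groups left (red) and fresh groups right (blue). Hba-a1 is high in SGM, Atf3 in HSC and SGM, Cdkn1c in SGM, and Hmgcs1 and Scd1 are low in HSC.

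Immediate early genes divided. Of 37 measured, 10 were higher and 15 lower over all groups, with 15 higher and 5 lower in pluripotent groups and 5 higher and 20 lower in somatic groups. Over all genes 21.1% were higher and 23.7% lower, with 21.8% and 17.1% in pluripotent groups and 24.6% and 33.5% in somatic groups. Atf3, a stress-induced transcription factor, averaged 8.06 in ESC, 8.98 in EGC, 8.06 in MEF and 7.21 in NSC, against 8.57 in ICM, 7.58 in PGC E11.5, 9.73 in SGM and 11.43 in HSC, where its arrays were at 10.49 and 12.38. Its difference was -2.95 in somatic groups, and without NSC and HSC the overall difference was -0.26 and not called. Socs3, the feedback inhibitor of cytokine signals, had 10.20 in ICM and 10.42 in HSC and differed by -1.09, whereas Egr1 and Sgk1, serum-responsive genes, were higher by 1.00 and 1.06. Of 31 heat shock genes 9 were higher and 4 lower, with 1 higher and 11 lower in pluripotent groups and 17 higher and 2 lower in somatic groups. Hspa1a, an inducible chaperone of this list, differed by -1.53 ± 0.30, with 11.06 in ICM and 10.26 in HSC.

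The medians of cell division genes had opposite signs in MEF minus SGM and in NSC minus HSC. Of 47 DNA replication genes 7 were higher and 21 lower (median -0.17), and of 42 mitosis genes 6 and 12 (-0.12), or 28.6% lower against 23.7% of all genes. The mitosis median was -1.61 for MEF minus SGM and 1.59 for NSC minus HSC, and the DNA replication median -1.16 and 0.80. Among the 7 replication genes higher in culture were Ccnd1 and Ccnd2, D cyclins that start the cycle, with differences of 2.45 and 1.03, and Rrm2, the ribonucleotide reductase subunit, with 0.98. Ccnd1 averaged 10.70 in ESC, 12.29 in EGC, 13.12 in MEF and 12.32 in NSC, against 9.26 in ICM, 9.37 in PGC E11.5, 11.03 in SGM and 8.98 in HSC; ESC lay below SGM, and without SGM it separated the other groups. Rrm2 had 6.52 in HSC, and its difference without HSC was -0.22. Pola1, a polymerase subunit, and Pttg1 and Cenpa, of mitosis, had differences of -0.86, -0.92 and -0.88, with MEF the lowest cultured group in all 3. Of 50 splicing genes 3 were higher and 19 lower, with Hnrnph3 and Sf3a1 at -0.72 and -0.52.

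Of the marker genes that the contrast could carry by cell type, Dppa3, a gene of the inner cell mass and germ line, fell by 2.59 in pluripotent groups, with 9.33 in ESC and 8.24 in EGC against 11.31 in ICM and 11.43 in PGC E11.5. Sox2, shared by pluripotent and neural cells, and Fabp7, a neural fatty acid binding protein, were at 12.01 and 13.80 in NSC and differed by 2.20 and 2.07. Kit, a receptor of germ and blood stem cells, fell by 1.81. Krt18, an epithelial keratin, had 9.99 in ICM and differed by -2.22 ± 0.26.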

How the data were processed

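The deposited values are log2 signals from Affymetrix arrays, normalised by the authors with RMA per the submitters' processing notes (version not given in the sources used here). RNA went through 2 rounds of in vitro transcription, per the labels' protocols. Of 34 columns, 2 equalled the mean of other columns within 1e-06 and were not used; 32 arrays in 10 groups remained. The 12488 probe sets were named from the platform's gene table and updated through the GRCm38.p6 gene table; 66 controls and probe sets with several genes or none were left out, and the brightest probe set stood for each of 8251 genes.

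All 10 groups shared 1 variance estimate in limma 3.58.1 (R 4.3.3), with Benjamini-Hochberg adjustment over all genes. Contrasts gave each group mean equal weight, over all groups, in pluripotent groups, in somatic groups, and as the difference of both. The fitting code was tested on simulated data. The number of arrays limits the precision. Members and gene lists were chosen with earlier results of these data known. Genes named were drawn from the separated and called genes and from the 10 genes with the largest differences of differences. Others came from each list, out of up to 4 called genes with the largest differences and all separated genes. The separated list members Acvrl1 and Cox5a differed by 0.19 and -0.18, and their other probe sets did not separate the groups. Not all of these genes are named, nor all of the largest separated genes in each direction, which were added after their values were seen. ACGTG was also added then, and CACGTG and TGCNCNC were likewise outside the planned motifs.

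Replicate numbers are those of the labels. Residuals of like-numbered arrays correlated between -0.566 and 0.295 over 16 pairs of groups. For MEF and PGC E11.5 all 4 like-numbered pairs were over 0.1 (0.104 to 0.269), and 2 further pairs of groups with 2 shared numbers were too, but not the others, so numbers were not taken as pairs over the whole contrast.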

Additional observations from a re-analysis of the deposited data

Results flagged for a closer look

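Single arrays that stood apart from their group were found in 16 of 276 groups of values, and chance flags about 1 in 20. Replicate 6 of MEF accounted for 6 of them. It had 10.68 for Mt1 (others 9.98 to 10.20), 12.08 for Pgk1 (others 12.28 to 12.38), 11.44 for Pkm (others 11.69 to 11.80), 8.775 for Cdkn2a (others 7.66 to 8.035), 16.87 for S100a6 (others 16.37 to 16.52) and 16.43 for Col5a2 (others 16.725 to 16.79). In PGC E11.5, replicate 4 had 7.285 for Ext1 (others 6.82 to 6.87), replicate 1 had 6.49 for Adm (others 6.73 to 6.775), replicate 4 had 7.915 for Kit (others 8.68 to 8.78) and replicate 4 had 9.92 for Cenpa (others 10.18 to 10.22). In SGM, replicate 3 had 8.06 for Ccnd2 (others 7.485 to 7.55), replicate 2 had 7.90 for Fermt2 (others 8.11 to 8.11), replicate 3 had 8.75 for Bex1 (others 8.995 to 9.03) and replicate 4 had 8.56 for Emcn (others 8.88 to 8.91). In MEF, replicate 2 had 16.74 for Acta2 (others 16.51 to 16.58) and replicate 3 had 6.64 for Bex1 (others 5.62 to 5.97).

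The cultured minus fresh difference itself differed between pluripotent and somatic groups in 57 of the 92 genes examined. The call was by the interaction term in limma, with a size of at least 1. Of all 8251 genes, 492 (5.96%) passed as more positive in pluripotent groups and 901 (10.9%) as more positive in somatic groups. Many of the 92 genes were chosen for large differences in these same data, some for this difference of differences itself. Their higher share follows from that choice and is not a result about them. Values are pluripotent minus somatic on the log2 scale. The value was negative for Tnc (-4.41), Cpe (-4.07), Me1 (-3.95), Atp6v1c1 (-3.785), Fbln2 (-3.77), Col5a2 (-3.35), Fabp7 (-3.335), Scd1 (-3.18), Hmgcs1 (-3.09), Msmo1 (-3.03), Cdkn2b (-2.99) and Sox2 (-2.73). It was also negative for Ephx1 (-2.63), Anxa3 (-2.63), Adm (-2.53), Ccn2 (-2.44), Fermt2 (-2.43), Nsdhl (-2.23), Ccng1 (-2.22), Lox (-2.22), Dppa3 (-2.16), Mmp14 (-2.01), Psat1 (-2.002) and Idi1 (-1.93). The same direction was found for Mid1ip1 (-1.90), Ccnd2 (-1.76), Cav1 (-1.75), Rrm2 (-1.69), Phlda3 (-1.46), Ak1 (-1.42), Fhl1 (-1.26), Tagln (-1.11), Pkm (-1.09), Aldoc (-1.05) and Pdia4 (-1.003). The value was positive for Hba-a1 (4.525), Hbb-b2 (4.39), Bex4 (4.19), Bex1 (4.155), Rab26os (3.98), Laptm5 (3.71), Hba-x (3.495), Hbb-y (3.40), Atf3 (3.39), Cdkn1c (3.33), Lmo2 (2.74) and Emcn (2.47). This also held for Slc38a2 (2.33), Krt18 (2.14), Ldha (1.73), Slc2a1 (1.67), Gata2 (1.65), Socs3 (1.59), Srgn (1.56), Lcp1 (1.21), S100a6 (1.14) and Tuba1a (1.07).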

How the results depend on the processing

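Settings were changed one at a time. Of 290 counts under other settings 264 stayed within 1.5 times of the value reported, and of 364 counts with 1 array left out 358 did. The count higher in culture kept to 1536 to 2222 genes and the count lower to 1680 to 2596. With E13.5 germ cells added as fresh groups, the test across cell types called 2 genes higher, Mt1 and Zmat3. It counted PGC E11.5 and both E13.5 germ cell groups as separate units, although they are of the same lineage. Under that setting 22 genes separated as higher, and 1 of them was called. The called count was also 1 with only the 8 groups in the fit and 1 with the mean of probe sets, 7 without SGM and 4 without NSC and HSC. Without EGC 1140 genes were higher in pluripotent groups. Genes separated as higher numbered 63, 83, 89, 85, 118, 101, 80, 157 and 245 without PGC E11.5, ESC, ICM, EGC, SGM, MEF, NSC, HSC, and NSC with HSC, and genes separated as lower 118, 90, 119, 142, 105, 112, 92, 95 and 170; fewer groups have to separate in each. With 1 array left out, 1 to 3 separated higher genes and 0 lower genes were called, 32 to 41 separated as higher and 40 to 51 as lower. The overall difference reversed for Cav1 (-0.34), Lox (-0.23) and Col5a2 (-0.0261) without MEF, for Atp6v1c1 without SGM (-0.28), HSC (-0.21) and NSC with HSC (-0.18), for Laptm5 (0.13) and Rrm2 (-0.22) without HSC, and for both without NSC and HSC (0.47 and -0.0835). Bex1 reversed with arrays weighted equally (-0.70), with E13.5 added (-0.33), without ESC (-0.47) and without EGC (-0.97), and Bex4 without PGC E11.5 (0.000564), MEF (0.63), NSC (0.0541) and NSC with HSC (0.18). The cause was not tested. With the replicate number as a block 1682 genes were higher and 1940 lower, and of 14 counts and 92 genes the block changed only the call of Rab26os, which passed the threshold (-0.32). The number of arrays and the ceiling of bright MEF signals limit these values.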
